A study of Mus musculus with 4 samples.

Results

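The guanylate-binding proteins (GBPs) were read in primary cortical astrocytes of CD38 knockout (CD38 KO) and wild-type (WT) mice, in 2 RNA libraries of each genotype. The family was taken by gene symbol: Gbp4, Gbp6, Gbp8, Gbp9 and Gbp10 on chromosome 5 and Gbp2, Gbp2b, Gbp3, Gbp5 and Gbp7 on chromosome 3, which makes 10 of the 55467 genes listed in each library. The family, and the contrast of its chromosome 5 with its chromosome 3 genes, were selected on the FPKM values of these CD38 KO and WT libraries. The members' differences between genotypes are therefore given as a description, and a count of calls among them supports nothing.

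GBPs are large GTPases of the dynamin superfamily, and interferon-gamma is their best known inducer. They bind guanine nucleotides, assemble into polymers, and gather on the membranes of vacuoles and of bacteria inside the cell, where they help to break these open and to start inflammasome signalling. Several carry a lipid (prenyl) anchor at their carboxyl end. In astrocytes, Gbp2 is often used as a marker of an inflammatory reactive state.

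The CD38 KO cultures lack CD38, an enzyme that consumes NAD; the WT cultures are labelled only as wild type. Both came from cortices of pups aged 1 to 3 days. Cells grew for 14 days with 10% serum, were shaken for 12 h to remove loose cells, and were harvested 5 days after replating. The labels name no interferon or other stimulus, no mouse strain and no deleted exon of Cd38. Any difference in strain background between the groups, also at the chromosome 5 cluster, cannot be told apart from the loss of CD38. They do not state whether libraries 1 and 2 of a genotype came from different animals or cultures, so p-values measure only the spread between these libraries, which may be technical.

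Values are FPKM, fragments scaled to transcript length and to the library's total, so they can be set side by side between genes. Estimated depth ran from 29027690 to 29093367 fragments in the CD38 KO libraries and from 26857368 to 28246518 in the WT libraries. Cd38 itself had 0.0222 FPKM in both CD38 KO libraries, against 3.13 and 3.45 FPKM in the WT libraries. The astrocyte marker Gfap had 1198 and 1225 FPKM in CD38 KO, against 1390 and 1330 FPKM in WT. A list of 20 microglia and macrophage markers summed to 836.5 to 936.2 FPKM in CD38 KO and 169.4 to 182.0 FPKM in WT, with none at 0 in all libraries. All 18 of its tested genes were called higher in CD38 KO, beside 8.0% of all tested genes, with a median log2 change of 2.31. Cx3cr1, Tmem119 and Itgam were under 1 FPKM in both WT libraries, so they passed the filter given below only through their CD38 KO libraries. The 16 astrocyte markers summed to 6027 to 6272 FPKM in CD38 KO and 7110 to 7112 FPKM in WT, with 2 higher, 7 lower and a median log2 change of -0.19 over 15 tested. Fibroblast and mural markers summed to 59.7 to 91.9 FPKM in CD38 KO and 51.9 to 64.9 FPKM in WT. Of 7 tested, 1 was called, Pdgfra, which was lower, while their median log2 change was 0.29. Oligodendrocyte and neuron markers summed to 30.9 to 35.6 FPKM in CD38 KO and 43.9 FPKM in WT (2 of 5 called, lower). Pdgfra is on that list too and is among its calls. Endothelial markers summed to 5.29 to 6.02 FPKM in CD38 KO and 4.69 to 5.40 FPKM in WT. The part of this difference in cell markers in the GBP values below was not tested. In these bulk cultures, fewer cells of a type and less RNA per cell cannot be told apart.

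A log2 change here is the CD38 KO mean minus the WT mean of log2(FPKM + 1), which understates the change of low genes. A gene is called when limma gave it an adjusted p (Benjamini-Hochberg) under 0.05 among the 13064 genes averaging at least 1 FPKM. All 10 members passed that filter, Gbp8 and Gbp10 only through their WT libraries. Of the 10 members 1 was called higher in CD38 KO and 4 were called lower, and all 5 of them lie on chromosome 5; whichever library was left out, 3 were called. Across all tested genes 14.4% were called, 8.0% higher and 6.35% lower. The genotypes did not overlap in 6 members, 1 with both CD38 KO libraries above both WT libraries and 5 with both below. Over all tested genes 59.9% did not overlap, 30.4% with CD38 KO above and 29.5% with it below.

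**Figure D1:**
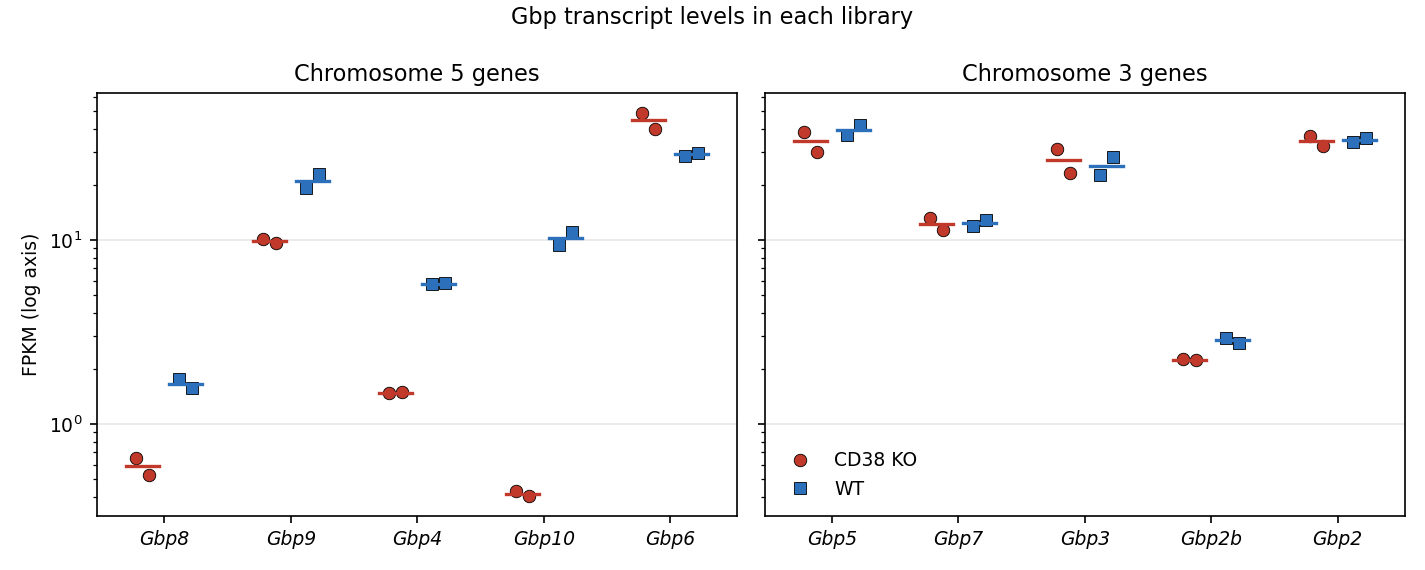
FPKM (log axis) of each member in every library, with the chromosome 5 genes apart from the chromosome 3 genes and the CD38 KO libraries left of the WT libraries; short lines mark group means. Gbp10 was near 0.417 FPKM in CD38 KO and 10.2 FPKM in WT, while Gbp2 had means of 34.6 FPKM in CD38 KO and 34.8 FPKM in WT.

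The chromosome 5 cluster covers 279.5 kb at chr5:105014150-105293698 on GRCm38, with all 5 members on the minus strand, 61.1 Mb from Cd38. From left to right lie Gbp8, Gbp9, Gbp4, Gbp10 and Gbp6. The annotated spans of Gbp8, Gbp9 and Gbp4 overlap, and the deposited files give these genes 1 shared locus, 105014150 to 105139586. Gbp10, Gbp6 and the gene model Gm43302, which spans both, share the other, 105214907 to 105293698. The genes are close copies of each other: over their coding sequence the 10 chromosome 5 pairs were 76.7% to 98.4% identical, with Gbp10 and Gbp6 the closest pair (1806 of 1836 bases). Pairs within the chromosome 3 cluster were 57.7% to 82.5% identical, and pairs between the clusters 52.0% to 71.3%.

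How near the copies are shows in the 60 coding bases around the P-loop, the loop of the GTPase domain that holds the phosphates of the nucleotide. All lie in exon 2 and are printed 5′ to 3′ on the coding strand from GRCm38. Capitals mark bases that differ from Gbp6, which is given first.
Gbp6, chr5:105290853-105290912, minus strand: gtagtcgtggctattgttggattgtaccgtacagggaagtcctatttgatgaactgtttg
Gbp10, chr5:105235967-105236026, minus strand: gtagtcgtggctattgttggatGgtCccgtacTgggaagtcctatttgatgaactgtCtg
Gbp9, chr5:105105680-105105739, minus strand: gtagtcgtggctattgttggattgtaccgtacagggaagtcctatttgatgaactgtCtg
Gbp4, chr5:105136854-105136913, minus strand: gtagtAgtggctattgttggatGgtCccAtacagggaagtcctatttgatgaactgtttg
Gbp2, chr3:142623808-142623867, plus strand: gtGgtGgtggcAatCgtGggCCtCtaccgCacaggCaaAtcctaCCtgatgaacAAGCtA
Gbp9 differed from Gbp6 at 1 of the 60 bases, Gbp8 at 2, and Gbp10 and Gbp4 at 4 each. The chromosome 3 genes differed from Gbp6 at 12 (Gbp7) to 18 bases (Gbp2 and Gbp5).

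Such likeness bears on how reads are shared out. Of the 50-base stretches of annotated Gbp10 transcripts 15.9% occur in no other gene's transcripts, and 73.3% also occur in Gbp6. Gbp6 had 29.3% of its stretches to itself and Gm43302 0.0%. Gbp8 had 81.9%, Gbp9 92.0% and Gbp4 92.3%, and the chromosome 3 genes 87.3% to 98.6%. The read length is not given in the sources used here, nor is the authors' treatment of reads that match several genes, so the levels of Gbp6 and Gbp10 are uncertain one against the other.

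**Figure D2:**
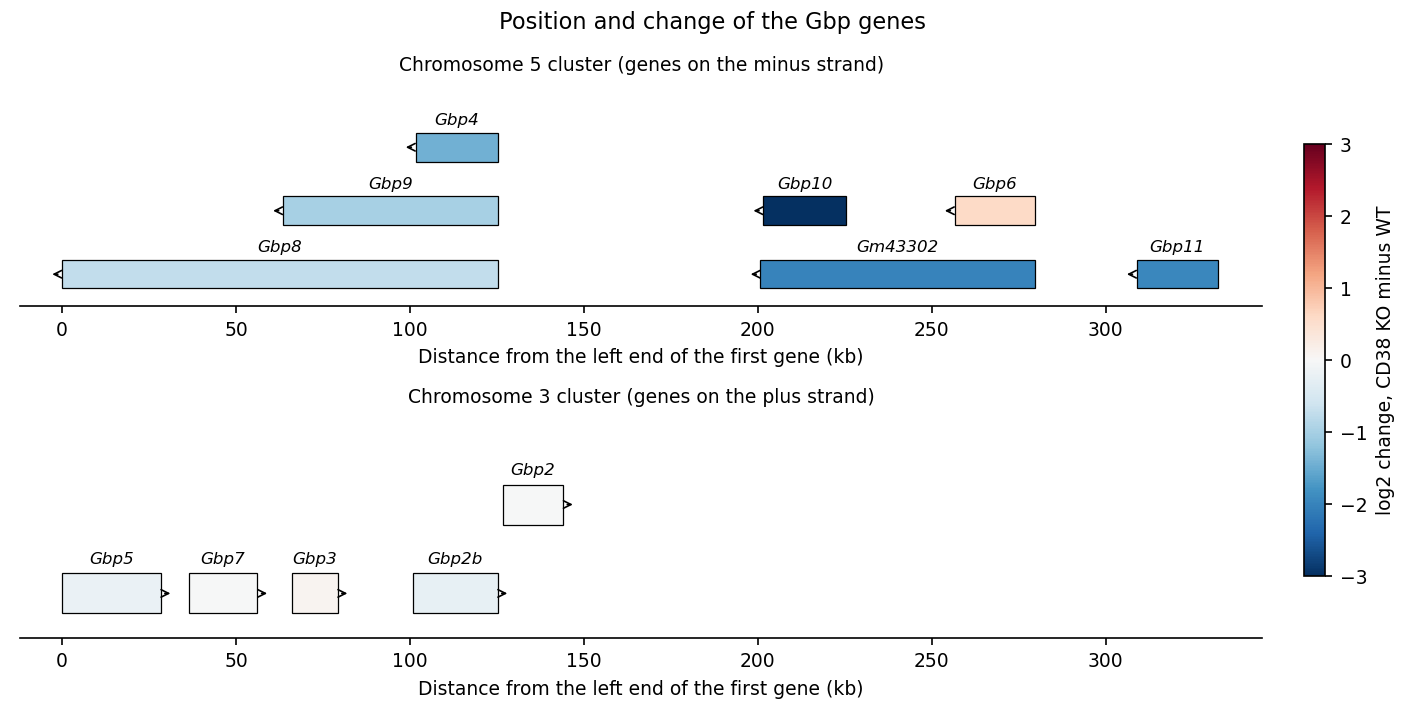
Spans of the members and of Gm43302 and Gbp11, drawn to scale as distance in kb from the left end of each cluster, coloured by log2 change (CD38 KO minus WT), with arrows for the direction of transcription. The chromosome 5 cluster holds the 4 members called lower and, at its right end, Gbp6, which was called higher.

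Gbp10, which is named with Gbp6, Gbp7 and Gbp2b among GBPs that restrict bacteria in mouse macrophages, had the widest difference of the family. It had 0.430 and 0.403 FPKM in CD38 KO, against 9.42 and 11.1 FPKM in WT. The means were 0.417 ± 0.0190 FPKM in CD38 KO and 10.2 ± 1.15 FPKM in WT (SD, n = 2 each), 24.6-fold lower in CD38 KO. The log2 change was -2.98 (SE 0.11). If every fragment came from its 3528-base transcript, these values stand for about 41.9 and 39.4 fragments in CD38 KO and 850.4 and 1048 in WT. Limma called Gbp10 lower in each of the 4 fits without 1 library.

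Gbp4, Gbp9 and Gbp8, which share the left-hand locus, were all lower in CD38 KO. Gbp4 had 1.47 and 1.49 FPKM in CD38 KO, against 5.75 and 5.83 FPKM in WT. It was 3.91-fold lower in CD38 KO, with a log2 change of -1.45 (SE 0.09), and was called whichever library was left out. Gbp9, the most abundant of these 3, had 10.2 and 9.59 FPKM in CD38 KO, against 19.1 and 22.7 FPKM in WT. It was 2.12-fold lower in CD38 KO (log2 change -1.005, SE 0.09). Without CD38 KO 2 the call ended (limma, adjusted p = 0.0546).

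Gbp8 was low in both genotypes, with 0.652 and 0.529 FPKM in CD38 KO, against 1.74 and 1.57 FPKM in WT. It was 2.81-fold lower in CD38 KO (log2 change -0.74, SE 0.14). Its call ended in limma whichever library was left out, at adjusted p from 0.0708 to 0.0858. For each of Gbp10, Gbp4, Gbp9 and Gbp8, both CD38 KO libraries lay below both WT libraries.

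Gbp6, the member closest to Gbp10 in coding sequence, was higher in CD38 KO. It had 49.2 and 40.2 FPKM in CD38 KO, against 28.6 and 29.8 FPKM in WT, with no overlap between genotypes. It was 1.53-fold higher in CD38 KO (log2 change 0.59, SE 0.10). In limma the call ended without WT 1 (adjusted p = 0.0985), WT 2 (0.0935) or CD38 KO 1 (0.0579), and held without CD38 KO 2. The CD38 KO libraries differed more from each other than the WT libraries did, with SDs of 6.31 FPKM in CD38 KO and 0.873 FPKM in WT.

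Because of the shared sequence, the right-hand locus was also read as a whole. Gm43302 was listed at 0 FPKM in CD38 KO 1 and had 0.0601 FPKM in CD38 KO 2, against 3.04 and 3.28 FPKM in WT. Gbp6, Gbp10 and Gm43302 together summed to 49.6 and 40.7 FPKM in CD38 KO, against 41.0 and 44.1 FPKM in WT. The means of these sums were 45.1 ± 6.29 FPKM in CD38 KO and 42.6 ± 2.195 FPKM in WT (SD, n = 2 each), so the genotypes overlapped in the sum although each gene separated them. FPKM of Gbp6 was 114.2 and 99.7 times that of Gbp10 in CD38 KO, against 3.03 and 2.697 times in WT. The left-hand locus differed as a whole: Gbp4, Gbp8 and Gbp9 summed to 12.3 and 11.6 FPKM in CD38 KO and to 26.6 and 30.1 FPKM in WT, a ratio of 0.422 of CD38 KO over WT.

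**Figure D3:**
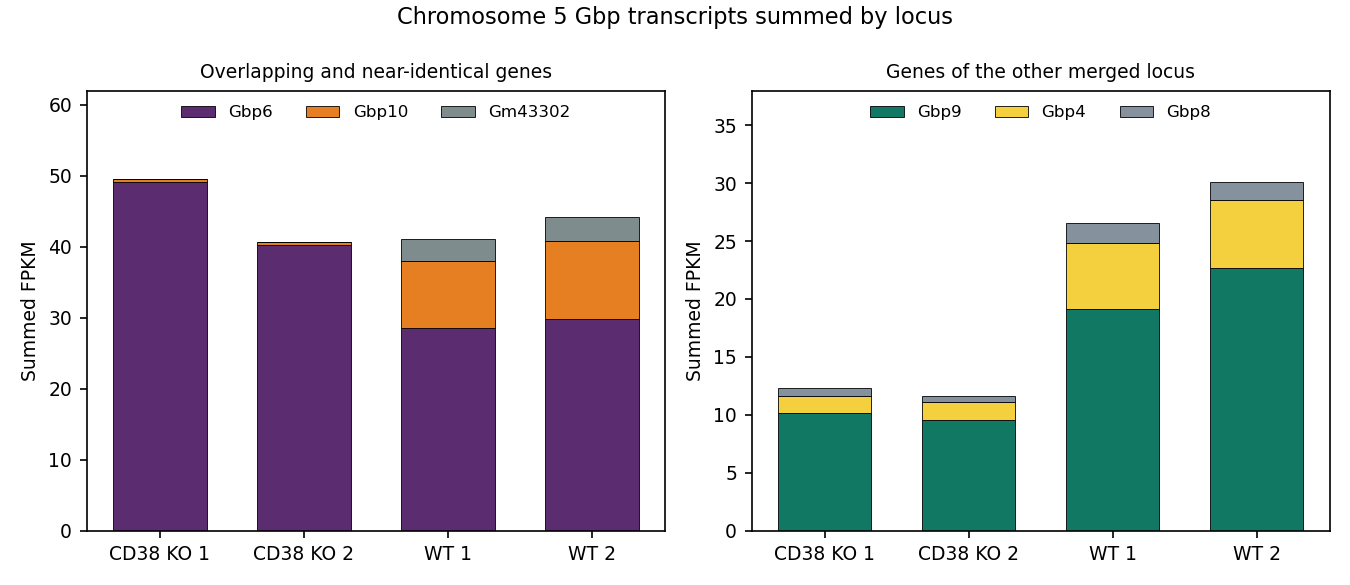
FPKM summed per library, stacked by gene, over the right-hand locus of chromosome 5 (Gbp6, Gbp10 and Gm43302, left panel) and its left-hand locus (Gbp9, Gbp4 and Gbp8, right panel), with CD38 KO bars left of WT bars and axes from 0. The sums of the left panel overlap between genotypes (40.7 to 49.6 FPKM in CD38 KO, 41.0 to 44.1 FPKM in WT), while those of the right panel do not (11.6 to 12.3 FPKM in CD38 KO, 26.6 to 30.1 FPKM in WT).

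Beside the cluster lies Gbp11, which GENCODE classes as a polymorphic pseudogene. It had 0.805 and 0.599 FPKM in CD38 KO, against 5.57 and 5.65 FPKM in WT, 7.99-fold lower in CD38 KO (log2 change -1.96). The pseudogene Gbp2-ps was listed at 0 in every library.

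The chromosome 3 cluster covers 144.0 kb at chr3:142493978-142638008 on GRCm38, with the 5 members on the plus strand in the order Gbp5, Gbp7, Gbp3, Gbp2b and Gbp2. RefSeq promoter windows on GRCm38.p6, from 250 bases before to 50 after a start, were found for these 5 members. Gbp4, Gbp6, Gbp8, Gbp9 and Gbp10 had no entry. The windows were searched on both strands for the interferon-stimulated response element (ISRE), written as GAAA, any 2 bases and GAAA again, where STAT and IRF proteins bind. All 5 genes had a window with a match, and the printed plus strand carries it in reverse, in capitals.
Gbp2, chr3:142620589-142620628: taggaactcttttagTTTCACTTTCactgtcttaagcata
Gbp2b, chr3:142594695-142594734: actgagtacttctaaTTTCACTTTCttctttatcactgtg
Gbp3, chr3:142559984-142560029: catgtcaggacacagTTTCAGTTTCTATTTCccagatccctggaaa
Gbp5, chr3:142496754-142496793: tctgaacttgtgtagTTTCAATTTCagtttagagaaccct
Gbp7, chr3:142530268-142530307: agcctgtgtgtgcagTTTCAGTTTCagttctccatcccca
The match begins 59 bases before the RefSeq start in Gbp2, 53 in Gbp7, 45 in Gbp3, 137 in Gbp2b and 165 in Gbp5. GENCODE, which gave the gene positions, starts Gbp2 at 142620602 and Gbp5 at 142493978, so their matches lie inside the GENCODE genes. Gbp3 has 2 overlapping matches, and its other listed window has none. The motif occurs in 3.4% of 32851 promoter windows of the table. The gamma-activated site TTCNNNGAA, searched likewise, occurs in 8.3% of windows, with 2 matches each in Gbp5 and Gbp7 and none in Gbp2, Gbp2b or Gbp3.

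Limma called 0 of these 5 genes, beside 14.4% of all tested genes, with 1 (Gbp2b) at an unadjusted p under 0.05. Genotypes overlapped in 4 of them, while 59.9% of all tested genes did not overlap. Gbp2, the reactive astrocyte marker, whose protein coats the vacuole of Toxoplasma in mouse cells, had 36.9 and 32.3 FPKM in CD38 KO, against 33.9 and 35.7 FPKM in WT. Its log2 change of -0.01 had a 95% interval of -0.20 to 0.18, before any adjustment. Gbp5, tied to the NLRP3 inflammasome, had 38.5 and 30.2 FPKM in CD38 KO, against 37.2 and 41.9 FPKM in WT (log2 change -0.20, interval -0.51 to 0.10). Gbp3 had 31.1 and 23.1 FPKM in CD38 KO, against 22.4 and 28.3 FPKM in WT (log2 change 0.09, interval -0.32 to 0.49).

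Gbp7, which takes part in assembling the NADPH oxidase in mouse macrophages, had 13.1 and 11.3 FPKM in CD38 KO, against 11.9 and 12.9 FPKM in WT. The interval of its log2 change of -0.02 ran from -0.24 to 0.20. For Gbp2, Gbp3, Gbp5 and Gbp7 the genotypes overlapped and the intervals included 0, and intervals of this width still allow modest changes. Gbp2b, known in older work as Gbp1, was the one chromosome 3 gene whose genotypes did not overlap, with 2.24 and 2.23 FPKM in CD38 KO, against 2.93 and 2.77 FPKM in WT. Its log2 change was -0.25, and it was not called.

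**Figure D4:**
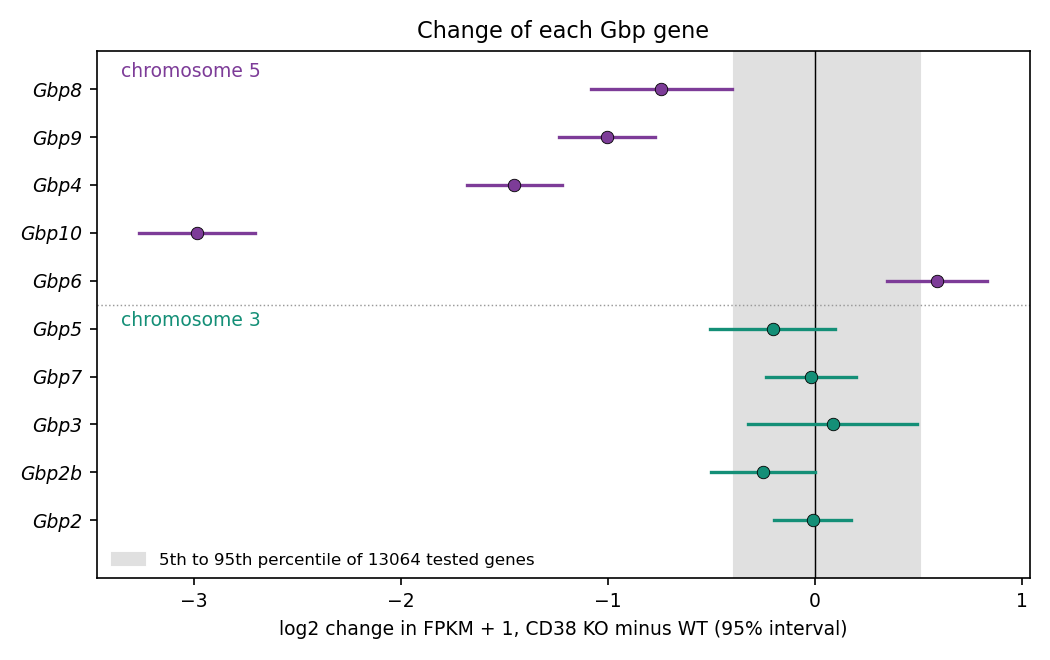
Log2 change of each member (CD38 KO minus WT, on log2(FPKM + 1)) with its 95% interval, the chromosome 5 genes above the chromosome 3 genes. Grey behind them spans the 5% to 95% quantiles of all tested genes, not their full range. The chromosome 5 genes run from -2.98 (Gbp10) to 0.59 (Gbp6), the chromosome 3 genes from -0.25 (Gbp2b) to 0.09 (Gbp3).

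Set against each other, the median log2 change was -1.005 (that of Gbp9) for the chromosome 5 genes and -0.02 for the chromosome 3 genes. Over all tested genes the median was 0.00, and the 5% and 95% quantiles were -0.39 and 0.51. Both CD38 KO libraries lay outside the WT range for all 5 chromosome 5 genes and for 1 of the 5 chromosome 3 genes, beside 59.9% of all tested genes. Summed FPKM of the chromosome 5 genes was 61.9 and 52.3 in CD38 KO, against 64.6 and 71.0 in WT. The chromosome 3 genes summed to 121.9 and 99.2 in CD38 KO, against 108.3 and 121.5 in WT, where the genotypes overlap. As a ratio within each library, the chromosome 5 sum was 0.508 and 0.527 of the chromosome 3 sum in CD38 KO and 0.597 and 0.584 in WT. Gbp6 alone made up 79.4% and 77% of the chromosome 5 sum in CD38 KO, against 44.2% and 42.0% in WT. Across the family, 9 of 10 members were higher in CD38 KO 1 than in CD38 KO 2, and 8 of 10 higher in WT 2 than in WT 1. The share of all tested genes with the same order was not counted, so these counts are not read as a trait of the family.

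By level in CD38 KO the order was Gbp6, Gbp2, Gbp5, Gbp3, Gbp7, Gbp9, Gbp2b, Gbp4, Gbp8 and Gbp10, with means from 44.7 to 0.417 FPKM. In WT it was Gbp5, Gbp2, Gbp6, Gbp3, Gbp9, Gbp7, Gbp10, Gbp4, Gbp2b and Gbp8, from 39.5 to 1.66 FPKM. Between neighbours in the order, the library values overlapped for Gbp2 with Gbp5 and Gbp5 with Gbp3 in CD38 KO, and for Gbp3 with Gbp9 in WT; all other neighbours were separate in these libraries. Gbp10 was last in CD38 KO and the seventh in WT.

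Genes of the pathway around the GBPs were taken from 8 lists with 91 genes, of which 70 were tested. Of these 7 were higher, 7 lower and 56 not called, or 20% called beside 14.4% of all tested genes, and their median log2 change was 0.03. With 1 library left out, 5 (without either CD38 KO library), 6 (without WT 2) or 7 (without WT 1) were called. Among the ligands and receptors, Ifng was listed at 0 in every library and 0 of 4 tested genes were called in limma (1 at an unadjusted p under 0.05). Ifngr1 and Ifngr2, the chains of the interferon-gamma receptor, averaged 31.7 and 29.4 FPKM in CD38 KO, against 30.9 and 24.8 FPKM in WT.

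Of 16 signalling genes (JAK, STAT, IRF and SOCS) 1 was higher and 3 were lower. Irf8, a transcription factor strong in myeloid cells, rose to 2.285 and 2.197 FPKM in CD38 KO, against 0.933 and 0.739 FPKM in WT (log2 change 0.82), and passed the filter only through its CD38 KO libraries. Socs3, a feedback inhibitor of cytokine signalling, fell to 56.1 and 62.6 FPKM in CD38 KO, against 123.8 and 141.1 FPKM in WT (log2 change -1.14). Stat3 (-0.23) and Irf1 (-0.25) were lower, and each lost the call in all 4 fits without 1 library (limma, adjusted p up to 0.2). Irf8 lost it in 3 of these 4 fits, all except that without WT 1 (up to 0.0827).

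The immunity-related GTPases, partners of GBPs at vacuoles, had 1 of 6 tested genes called. Iigp1 rose to 11.6 and 11.1 FPKM in CD38 KO, against 5.99 and 7.12 FPKM in WT (log2 change 0.71), and the call ended without either CD38 KO library (limma, adjusted p up to 0.102). Igtp had 42.3 and 39.8 FPKM in CD38 KO, against 45.9 and 46.8 FPKM in WT, and was not called. Of the 5 tested relatives among the Mx and atlastin GTPases limma called 0 (1 at an unadjusted p under 0.05).

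Among 6 prenylation genes, whose enzymes attach and trim the lipid anchor, Rce1 was lower (log2 change -0.33) and 5 were not called. Of 13 tested genes of an autophagy list, Sqstm1 was higher (0.19) and Map1lc3a lower (-0.50). The inflammasome and oxidase list had 3 of 8 genes higher (Cybb, Cyba and Pycard) and 1 lower. Cybb, the catalytic chain of the phagocyte NADPH oxidase, rose to 8.48 and 7.03 FPKM in CD38 KO, against 1.65 and 1.71 FPKM in WT (log2 change 1.70), beside the microglia markers' median of 2.31. Il18, a cytokine that inflammasomes mature, fell to 17.2 and 16.4 FPKM in CD38 KO, against 25.9 and 24.9 FPKM in WT (log2 change -0.57). Among 13 other interferon-gamma targets Cd274, the checkpoint ligand PD-L1, was higher (0.85) and the peptide transporter Tap2 lower (-0.40). Rce1, Sqstm1, Cyba and Pycard lost the call in all 4 fits without 1 library (limma, adjusted p up to 0.18). Cd274 lost it in 3 of the 4, all except that without CD38 KO 2 (up to 0.0628), and Tap2 only without CD38 KO 2 (0.0565).

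**Figure D5:**
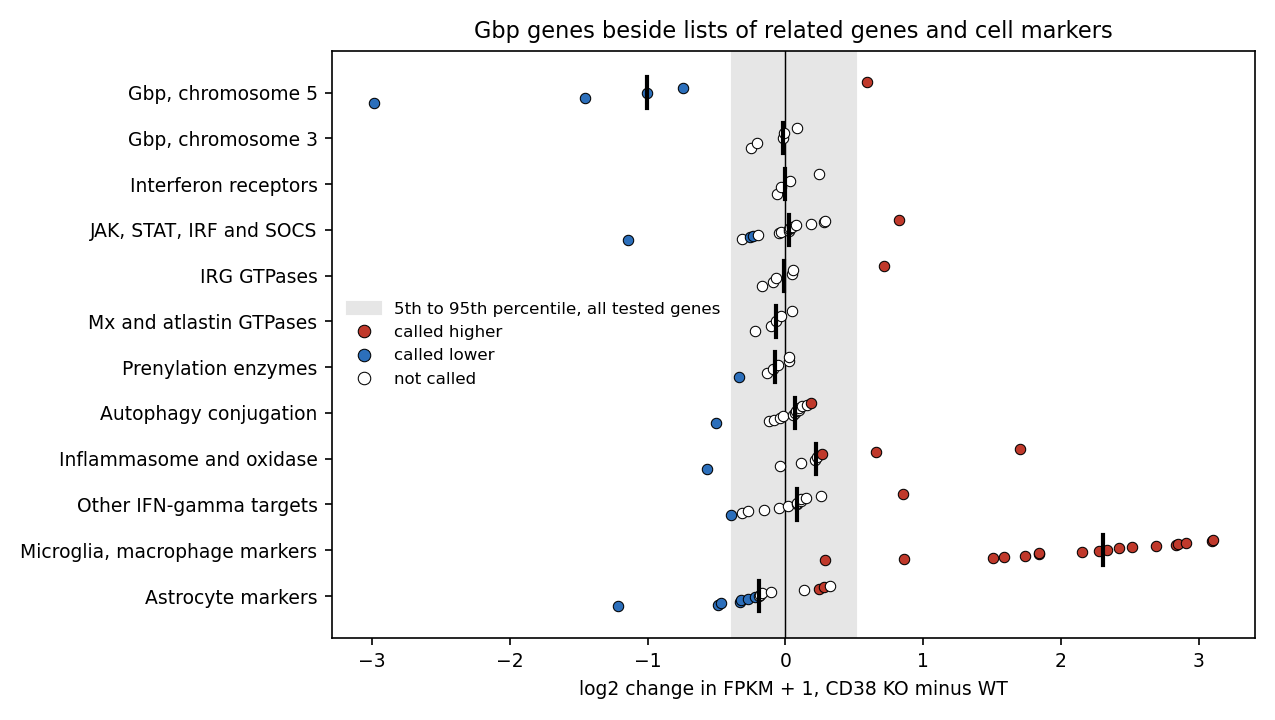
Log2 change (CD38 KO minus WT) of each tested gene, one dot per gene, in rows for the GBPs, the 8 pathway lists and the microglia and astrocyte markers; red and blue dots were called higher and lower, black bars are medians, and grey spans the 5% to 95% quantiles of all tested genes. Among the called pathway genes Cybb (1.70) and Socs3 (-1.14) lie farthest from 0, and the microglia markers have a median of 2.31.

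Genes lying within 1 Mb of each cluster were read in the same way. On chromosome 3, 7 neighbours were tested and 0 called in limma (2 at an unadjusted p under 0.05), with a median log2 change of -0.04. On chromosome 5, 13 were tested, 1 was higher and 5 lower, with a median of -0.23. At an unadjusted p under 0.05 in limma there were 11, 2 higher and 9 lower. The share of all tested genes under that unadjusted threshold was not counted, here or for the lists above. The 11 can therefore not be set beside the shares of adjusted calls. Gm43302 and Gbp11 are among the 5 called lower. Both of these passed the filter only through their WT libraries. The next genes to the right, the volume-regulated anion channel subunits Lrrc8b, Lrrc8c and Lrrc8d, had log2 changes of -0.16, -0.23 and -0.20. None of them was called. In each, both CD38 KO libraries lay below both WT libraries, as they did in 29.5% of all tested genes. The other calls, chosen for naming after their values were seen where they lie farther off, were Thoc2l (-0.63), Sparcl1 (-0.66), Spp1 (-0.35) and Hsd17b11 (0.26). Spp1 and Hsd17b11 lost the call in limma in all 4 fits without 1 library, and Thoc2l in 3 of them, all except that without WT 1 (adjusted p up to 0.206). On the whole of chromosome 5, 17.6% of 858 tested genes were called, and on chromosome 3 14.2% of 633.

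Tested protein-coding genes were ranked by Euclidean distance to Gbp10 between centred log2(FPKM + 1) values over the 4 libraries. Gbp genes and provisional symbols, such as Gm numbers and Rik names, were left out of the ranking. The nearest of the kept genes were Ly6a (distance 0.256), Retsat (0.681), Angptl4 (0.751), Cnmd (0.812) and Cwc22 (0.827). Ly6a, the surface antigen Sca-1, had 7.22 and 6.57 FPKM in CD38 KO, against 48.0 and 55.3 FPKM in WT. The 4 libraries set only a few patterns apart, so the order of these distances is a description.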

How the data were processed

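RNA of 4 libraries, 2 CD38 KO and 2 WT, was grouped by genotype from the labels. Tools listed are STAR 2.7.0f, Cufflinks 2.2.1 and bcl2fastq 2.17, with build GRCm38, per the submitters' processing notes. The deposited values are FPKM per gene, per the file headers; the annotation release is not given in the sources used here. GENCODE M21, which matched 55140 of 55467 gene IDs, gave the positions.

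Genes averaging at least 1 FPKM were tested on log2(FPKM + 1) by limma 3.58.1 in R 4.3.3. The fit used a trend, with Benjamini-Hochberg adjustment at 0.05. It was also run on simulated data with independent noise in each library, which does not bear on how these libraries were replicated. Fold changes are ratios of mean FPKM. Depth was estimated from steps of 1 fragment in low values of single-transcript genes (91.6% to 92.3% of them within 0.1 of a whole number), and covers counting error only. Other steps used Python 3.11.15, numpy 2.4.6, pandas 2.3.3, scipy 1.17.1, matplotlib 3.10.9 and Biopython 1.88.

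Members and lists were chosen with earlier results of these data known. Named were all members and other Gbp genes, Cd38, up to 4 genes of smallest p per list and those needed for a role. Also named were up to 6 nearest neighbours per cluster, and the 5 protein-coding genes most like Gbp10, without Gbp genes and provisional symbols. Alternatives changed the pseudocount (0.1, 0.5), the filter (none, 5 FPKM), the scaling, the moderation and the block, or left out 1 library. Fits without 1 library kept the genes that passed the filter over all libraries, including the one left out.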

Additional observations from a re-analysis of the deposited data

How the results depend on the processing

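Genes called numbered 1875, against 742 with no filter on low values, 1037 with the replicate block and 547 to 742 without 1 library. Members called numbered 5, against 3 with no filter, 3 with a filter of 5 FPKM (where Gbp4, Gbp8 and Gbp2b were not tested), 4 with the replicate block, and 3 without any 1 library. Pathway genes called numbered 14, against 7 with no filter and 5 to 7 without 1 library, and neighbours 6, against 3 with no filter, 3 with the 5 FPKM filter and 3 to 4 without 1 library. The median log2 change of the chromosome 5 genes minus that of the chromosome 3 genes was -0.99, -1.33 with a pseudocount of 0.1, and -1.05 to -0.91 without 1 library; the larger pseudocount flattens low genes by construction. With no filter Gbp6 and Gbp8 lost the call (limma, adjusted p = 0.104 and 0.0639), as Gbp8 did with the block (0.0587). Without 1 library the sign turned for genes never called: Gbp2 (-0.10 to 0.08), Gbp3 (-0.12 to 0.29), Gbp7 (-0.12 to 0.08), Irgm1 (-0.21 to 0.04), Irgm2 (-0.01 to 0.11), Casp4 (-0.11 to 0.03) and Mx2 (-0.22 to 0.32). Otherwise the causes were not tested. The replicate differences of the genotypes had a correlation of -0.161 over 13064 genes. This cannot show whether libraries with the same replicate number were paired. A block crossing the numbers, chosen after seeing the data, called 1961 genes.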
